A study of Drosophila melanogaster with 4 samples.

Results

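The mitochondrial ribosomal protein genes were taken as the protein-coding genes whose symbol starts with mRpL (large subunit) or mRpS (small subunit). There were 73 of them among 13945 protein-coding genes on the 6 main chromosome arms, 47 for the large and 26 for the small subunit. They were examined in a chromatin immunoprecipitation sequencing (ChIP-seq) map of CG1233 in whole Drosophila melanogaster embryos. The embryos were of both sexes, aged 0 to 24 h, and came from 1 transgenic line that stably expresses CG1233 fused at its C-terminal end to green fluorescent protein (GFP). Whole embryos mix all cell types, and the promoter that drives the fusion is not given in the sources used here. All 4 biological replicates belong to the same group, and no conditions were compared. The sample descriptions call the libraries input controls while their antibody field names CG1233. The lists are read here as ChIP calls, and nothing in the files decides between the labels.

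Mitochondria carry their own ribosomes, which make the few membrane proteins encoded by mitochondrial DNA. Their RNA comes from the mitochondrial genome, but their proteins are encoded in the nucleus, made in the cytosol and imported. Some of these proteins descend from bacterial ribosomal proteins and share their numbers, while others exist only in mitochondrial ribosomes.

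Each replicate list and the list called from the 4 alignments pooled held 30000 calls, many of them weak, and all lists used the same control. The authors' optimal list, chosen by reproducibility between replicates, held 5211 peaks. These were the 5211 strongest pooled calls. Each call has a summit, its point of highest signal, and rank 1 is the strongest call of its own list. A gene was counted as marked when a summit was found at most 500 bp from any of its annotated transcription start sites (TSSs). For single replicates the 5211 strongest calls of that replicate were used. A gene was called head-to-head when the TSS of a protein-coding gene on the opposite strand lay 0 to 1000 bp upstream of its own, and that gene is its partner. Read counts were not used here, and how deeply each replicate was sequenced is unknown. Calls with a −log10 q above 2 numbered 6697, 4575, 10424 and 5400 in replicates 1 to 4.

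Many of the stronger summits lay in or beside the DNA between a member and its oppositely oriented partner. Stretches at 6 of the 10 members with the strongest summits are shown first. Sequences are from the RefSeq copy of the dm6 genome, 5′ to 3′ on the strand of the ribosomal protein gene. The first 4 run over the whole stretch between the partner's TSS and the member's TSS, ending at the base before the member's TSS. The last 2 are the 101 bases centred on the summit, shown because their gaps are longer. Capitals mark matches, on either strand, to the words searched. In these stretches they are the TATA box word TATAAA, the E-box word CAGCTG and CGATA, a word bound by the insulator factor BEAF. The summit beside mRpL23 lies inside the gene, just past the short gap shown.
mRpS10 and Art3, chr3R:15229409-15229664, plus strand: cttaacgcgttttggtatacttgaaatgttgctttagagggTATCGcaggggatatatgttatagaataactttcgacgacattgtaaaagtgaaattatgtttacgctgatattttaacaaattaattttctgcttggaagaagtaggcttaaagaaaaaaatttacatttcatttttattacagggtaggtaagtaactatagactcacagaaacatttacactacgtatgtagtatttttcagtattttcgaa
mRpL23 and CG9004, chr3L:2373705-2373727, minus strand: gtttaaaacaagtgttggacaac
mRpL24 and betaggt-I, chr2L:4945362-4945578, minus strand: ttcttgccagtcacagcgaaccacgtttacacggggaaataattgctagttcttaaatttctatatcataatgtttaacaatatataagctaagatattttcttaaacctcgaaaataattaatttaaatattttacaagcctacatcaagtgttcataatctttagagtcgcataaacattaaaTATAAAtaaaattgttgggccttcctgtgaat
mRpS2 and Mon1, chr2L:4850420-4850640, minus strand: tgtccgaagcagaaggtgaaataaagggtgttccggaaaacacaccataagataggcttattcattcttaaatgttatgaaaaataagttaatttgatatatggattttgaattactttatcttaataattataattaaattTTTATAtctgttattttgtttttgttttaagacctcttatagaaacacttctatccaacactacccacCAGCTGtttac
mRpS23 summit, chr2L:13835399-13835499, minus strand: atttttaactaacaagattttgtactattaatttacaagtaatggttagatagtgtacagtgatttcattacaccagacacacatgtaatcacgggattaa
mRpL20 summit, chr3L:13018104-13018204, minus strand: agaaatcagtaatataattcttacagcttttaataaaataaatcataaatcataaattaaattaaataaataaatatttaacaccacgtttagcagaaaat
The summit lay at base 127 of the 256 between mRpS10 and Art3, at base 71 of the 217 beside mRpL24 and at base 28 of the 221 beside mRpS2. GC content of these 6 stretches ran from 16.8% at the mRpL20 summit to 34.8% between mRpL23 and CG9004.

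An optimal summit marked 27 of the 73 genes (37%, exact 95% interval 26% to 49.1%), against 19.9% of all protein-coding genes. Any pooled call, weak ones included, marked 47 (64.4%, interval 52.3% to 75.3%), against 47.8% of all genes. The marked set spanned both subunits and included genes for bacterial-type proteins such as mRpS10, mRpL23 and mRpL24 and for mitochondria-specific proteins such as mRpL41, mRpS23 and mRpL37. All intervals cover counting error only, and neighbouring genes are not independent.

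Among large subunit genes, 14 of 47 had an optimal summit (29.8%, interval 17.3% to 44.9%). Among small subunit genes, 13 of 26 did (50%, interval 29.9% to 70.1%). In replicates 1 to 4 the strongest calls marked 16, 15, 11 and 15 large subunit genes, a share of 30.3% ± 4.72 (SD, n = 4). They marked 12, 11, 7 and 14 small subunit genes, a share of 42.3% ± 11.3 (SD, n = 4). The small subunit share was the higher in each of the 4 replicates, but the same genes are counted each time. The SDs cover the spread between replicates and not that between genes. The intervals of the optimal shares overlap, and 19.9% of all protein-coding genes had an optimal summit. Genes whose protein number falls in the bacterial series (up to 36 for the large and 21 for the small subunit) had a summit in 17 of 42 cases (40.5%). The genes with higher numbers had one in 10 of 31 (32.3%). This division rests on the number alone, so a gene with a higher number need not be mitochondria-specific.

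The 4 leading small subunit genes were mRpS10, mRpS23, mRpS2 and mRpS6. mRpS10 (FBgn0038307, plus strand, chr3R:15229665-15230516) is the counterpart of a bacterial small subunit head protein. Its summit ranked 21, 12, 22 and 10 in replicates 1 to 4 and 13 in the pooled list. It lay 133, 130, 129 and 130 bp upstream of the TSS in the 4 replicates, a spread of 4 bp, in the optimal peak chr3R:15229355-15229717. That point was 127 bp from the TSS of the partner Art3, an arginine methyltransferase gene, and 130 bp from that of mRpS10, so it sat at the middle of the 257 bp gap.

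mRpS23 (FBgn0260407, minus strand, chr2L:13834250-13835072), a mitochondria-specific protein gene, ranked 17, 18, 16 and 21 in the replicates and 18 in the pooled list. Its summit lay far upstream, at 377, 382, 406 and 387 bp, and was nearer the partner CenG1A, at 115 bp. CenG1A encodes a GTPase-activating protein of the centaurin family. The optimal peak was chr2L:13835297-13835640.

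mRpS2 (FBgn0031639, minus strand, chr2L:4849439-4850419) ranked 497, 256, 572 and 315 in the replicates and 313 in the pooled list. Its optimal summit, in the peak chr2L:4850441-4850692, lay 194 bp upstream of mRpS2 and 28 bp from Mon1, whose protein acts in endosome maturation. Replicates 2 and 4 each placed it 156 bp upstream, replicate 3 at 166 bp and replicate 1 at 191 bp. mRpS6 (FBgn0035534, plus strand, chr3L:4364550-4365243) encodes the counterpart of a protein of the bacterial small subunit platform. It ranked 1626, 714, 2314 and 723 in the replicates and 843 in the pooled list. The ranks of replicates 1 and 3 were the weaker ones at both genes. The mRpS6 summit, in the peak chr3L:4364360-4364543, was 126 bp upstream of the gene and 322 bp from Cip4, which encodes an F-BAR membrane-bending protein.

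Among large subunit genes, mRpL41 held the strongest summit of the whole set. mRpL41 (FBgn0034001, minus strand, chr2R:15217024-15217617), a mitochondria-specific protein gene, ranked 19, 7, 29 and 7 in replicates 1 to 4 and 9 in the pooled list. Its summit lay 125, 133, 131 and 131 bp upstream, a spread of 8 bp. The optimal peak was chr2R:15217554-15217949, and the partner CG8079 was 632 bp from the summit, so mRpL41 was the only gene marked by it.

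mRpL23 (FBgn0035335, minus strand, chr3L:2372844-2373704) is the counterpart of a bacterial protein at the exit of the peptide tunnel. It ranked 114, 65, 95 and 61 in the replicates and 66 in the pooled list. Unlike most others, its summit was downstream of the TSS, at 53, 65, 51 and 62 bp in the replicates and 51 bp in the optimal peak chr3L:2373437-2373782. These distances are from the nearest of its 3 TSSs. The gap to its partner CG9004, 24 bp, is measured from its 5′-most TSS. The optimal summit lay 101 bp from CG9004.

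mRpL24 and mRpL20 are counterparts of proteins that act early in the assembly of the bacterial large subunit. mRpL24 (FBgn0031651, minus strand, chr2L:4944256-4945361) ranked 477, 250, 475 and 209 in the replicates and 262 in the pooled list. Its summit, in the peak chr2L:4945367-4945626, was 147 bp upstream and 71 bp from betaggt-I, which encodes a geranylgeranyl transferase subunit. mRpL20 (FBgn0036335, minus strand, chr3L:13017149-13017867) ranked 713, 568, 625 and 697 in the replicates and 602 in the pooled list. The replicate ranks were close here, and the 4 summits, 302, 281, 291 and 286 bp upstream, lay within 21 bp of each other. The optimal summit, in the peak chr3L:13018044-13018255, was 112 bp from Icmt, the gene of a methyltransferase acting on prenylated proteins.

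The other large subunit genes among the 10 strongest were less even between replicates. mRpL37 (FBgn0261380, minus strand, chr3R:10782563-10784092) ranked 4061, 1296, 4637 and 1098 in the replicates and 1396 in the pooled list. Its summit was 154 bp upstream, and the replicate summits spread over 139 bp. mRpL53 (FBgn0050481, plus strand, chr2R:13954195-13955664) ranked 1394, 2163, 3317 and 2046 in the replicates and 1606 in the pooled list. Its summit, 41 bp upstream in the peak chr2R:13953942-13954365, was as near to a TSS of CG33155 and was 129 bp from AGO1, the Argonaute gene of the microRNA pathway.

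**Figure D1:**
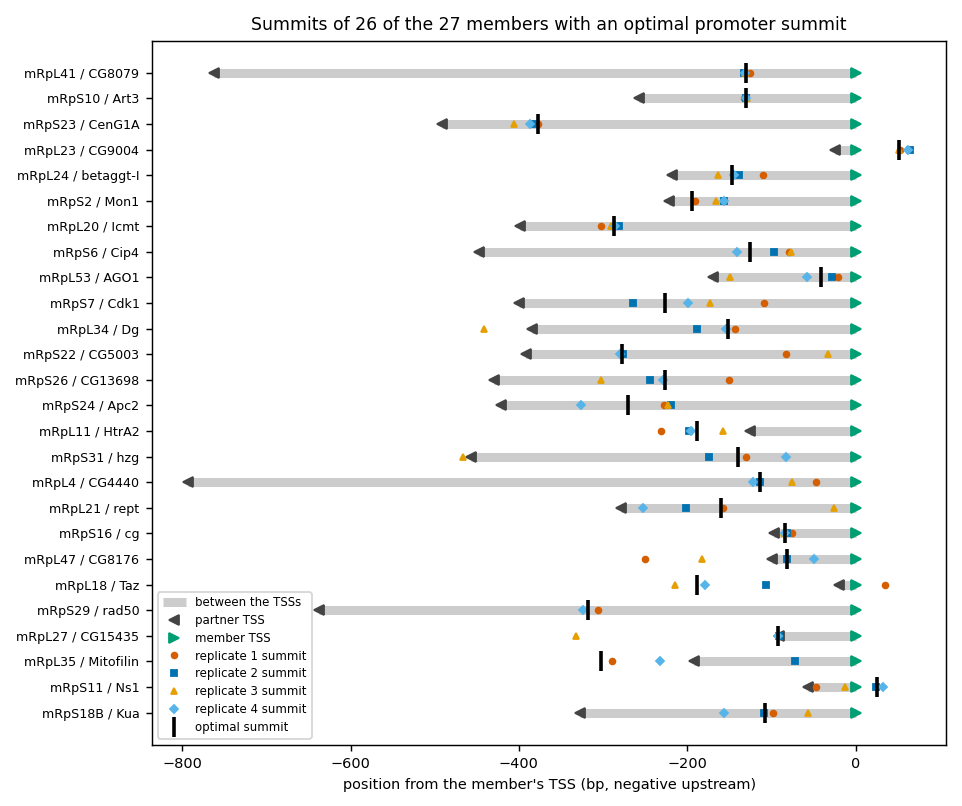
Summit positions at 26 of the 27 members with an optimal promoter summit (mRpL37 is not drawn), ordered by pooled rank, in bp from the member's TSS (negative is upstream). Grey bars run from the partner's TSS to the member's TSS, black ticks are optimal summits and coloured symbols are the summits of the strongest call of each replicate in the window. At mRpL23, which has 3 TSSs, summits are placed from the nearest TSS but the bar from the 5′-most TSS. Among all 27 genes the optimal summit is upstream of the member in 25, and in 21 it lies between both TSSs.

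The other 17 genes with an optimal summit ranked from 1756 to 4504 in the pooled list. For the small subunit these were mRpS7 (partner Cdk1, the mitotic kinase gene), mRpS22 (CG5003), mRpS26 (CG13698), mRpS24 (Apc2), mRpS31 (hzg), mRpS16 (cg), mRpS29 (rad50, a DNA repair gene), mRpS11 (Ns1) and mRpS18B (Kua). For the large subunit they were mRpL34 (Dg, the dystroglycan gene), mRpL11 (HtrA2), mRpL4 (CG4440), mRpL21 (rept), mRpL47 (CG8176), mRpL18 (Taz), mRpL27 (CG15435) and mRpL35 (Mitofilin). The partners HtrA2, a mitochondrial protease gene, Taz, which acts in cardiolipin remodelling, and Mitofilin, which shapes the inner membrane, also serve mitochondria. Most of the other partners named were not described in this way. The partner of mRpL55, a member with no pooled call, is ATPsynD, an oxidative phosphorylation gene. Partners were not classed by function over all members, so this is not read as a trait of the marked pairs.

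Several of these genes rested on part of the replicates. mRpS22 ranked 1759 and 1276 in replicates 2 and 4 but 12157 and 9315 in replicates 1 and 3. mRpS29 ranked 6545 in replicate 1 and 3301 in replicate 4, and had no call in replicates 2 and 3. mRpL47 ranked 3441, 11221, 1658 and 4603 in replicates 1 to 4. In mRpS22 replicates 2 and 4 were high, and in mRpL47 replicate 2 was the low one.

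The members nearest the end of the optimal list were close in rank. Just inside it, mRpL35 ranked 3962 in the pooled list, and 5649, 4623 and 2513 in replicates 1, 2 and 4 with no call in replicate 3. mRpS11 ranked 4038, and 3271, 6336, 4786 and 4382 in replicates 1 to 4. mRpS18B ranked 4504, with a −log10 q of 2.84, and 4860, 4328, 3553 and 4015 in the replicates. These were the last 3 members within the list, whose lowest −log10 q was 2.5.

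Just outside, mRpS17 ranked 5370 in the pooled list (−log10 q of 2.44), and 5018, 5701, 5661 and 4221 in the replicates. Its partner is Nop60B, a pseudouridine synthase gene. mRpL17 ranked 5624 (−log10 q of 2.3), and 3901, 4413, 9616 and 4775 in the replicates, so 3 replicates marked it although the optimal list did not. Its partner is Tudor-SN. mRpL48 ranked 6109 (−log10 q of 2.09), and 2956, 10137, 7050 and 19911 in the replicates. Its summit fell on its own TSS, 41 bp from CG17660.

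**Figure D2:**
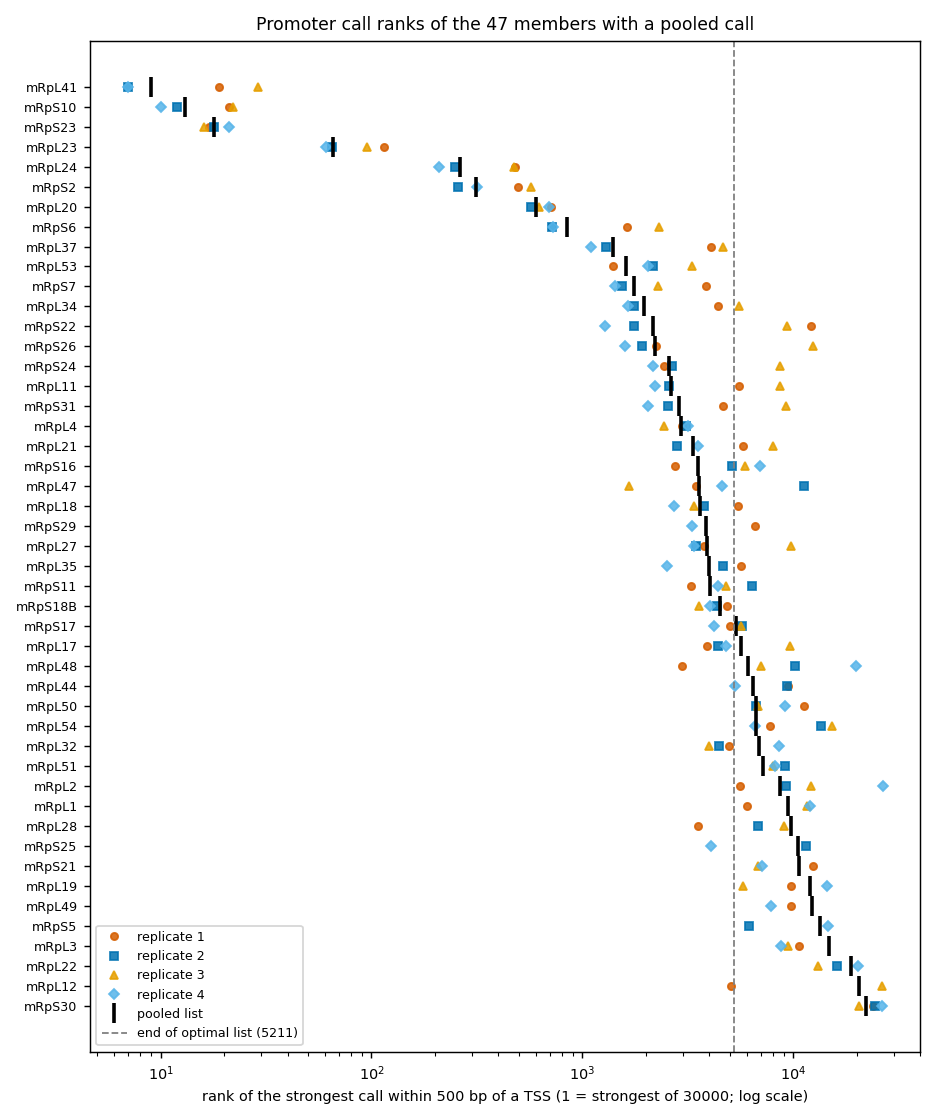
Rank of the strongest call within 500 bp of a TSS for the 47 members with a pooled call (log axis, 1 is the strongest of 30000), with black ticks for the pooled list and coloured symbols for the replicates, and a symbol left out where a replicate had no call. The dashed line is the end of the optimal list at rank 5211, with 27 members to its left, and replicates 1 and 3 lie to the right of replicates 2 and 4 for many genes from mRpS6 to mRpL21.

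Among the 27, the median pooled rank was 2216, against 2160 for all genes with an optimal summit. In replicates 1 to 4 their median ranks were 3271, 2043, 3382 and 2037, over the 27, 26, 25 and 27 that had a call. The strongest calls of all 4 replicates had a summit inside the optimal peak for 13 of the 27 (48.1%), against 49.2% of all genes with an optimal summit. The peaks of 8 more were held in this way by 3 replicates, of 4 by 2 and of 2, mRpS29 and mRpL35, by 1. The optimal list comes from the same alignments, so part of this sharing is built in.

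The strongest calls of replicates 1 to 4 marked 28, 26, 18 and 29 of the 73 genes, or 38.4%, 35.6%, 24.7% and 39.7%. All protein-coding genes were marked in 19.7%, 19.2%, 20.2% and 19.8% of cases. The means were 34.6% ± 6.84 for the family and 19.7% ± 0.396 for all genes (SD, n = 4). Replicate 3 stood lowest, and its interval of 15.3% to 36.1% includes the share of all genes. It was also the replicate with the most calls above a −log10 q of 2, and the part of list quality in its count was not tested. Replicates 2 and 4 marked 24 members in common and replicates 1 and 3 marked 16. Each overlap can be no larger than the smaller count of its pair, 26 and 18. The same overlaps were not counted over all genes, so they are not read as a trait of the family.

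All 4 replicates marked 13 members (17.8%), against 10.9% of all genes. A further 37 members were marked by none, a count not made over all genes. With weak calls included, replicates 1 to 4 had a call at 54, 42, 54 and 46 members, or 74%, 57.5%, 74% and 63%. Over all genes these shares were 51.9%, 44.6%, 52.5% and 43.8%.

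**Figure D3:**
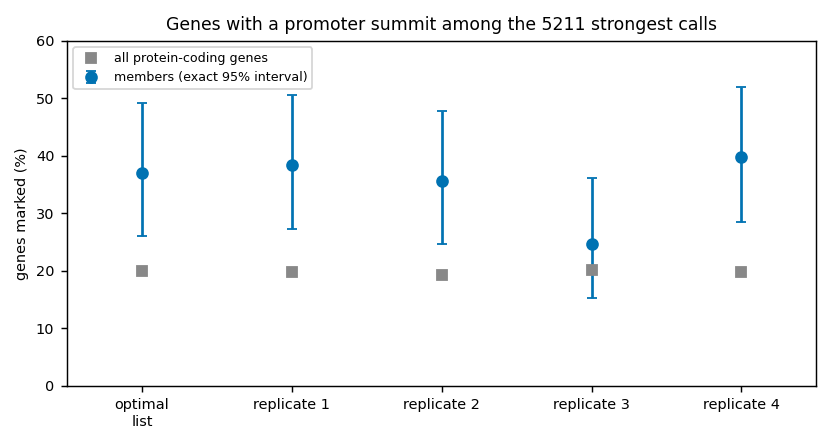
Share of genes with a promoter summit (percent) in the optimal list and among the 5211 strongest calls of each replicate, for the 73 mitochondrial ribosomal protein genes (circles, bars are exact 95% intervals) and for all 13945 protein-coding genes (squares). The circles lie between 24.7% and 39.7% and the squares between 19.2% and 20.2%, and the lower end of the interval is below the square only in replicate 3.

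Most members were head-to-head genes. A partner was found for 58 of the 73 (79.5%), against 36.2% of all protein-coding genes, with similar shares in the large (78.7%) and small subunit (80.8%). All 27 genes with an optimal summit were head-to-head. That is 27 of 58 (46.6%, interval 33.3% to 60.1%), against 34% of all head-to-head genes, whose share lies within that interval. Of the 15 members without a partner, 0 had an optimal summit, which allows a share of up to 20%, against 11.9% of all genes without a partner. Over all genes with an optimal summit, 61.9% were head-to-head.

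The replicates gave the same division with few exceptions. Their strongest calls marked 27, 26, 17 and 29 head-to-head members in replicates 1 to 4, and 1, 0, 1 and 0 of the others. The exceptions were mRpL12, at rank 5089 in replicate 1, and mRpL9, at rank 5131 in replicate 3. Both ranks are close to the end of the 5211 calls used.

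Marked members were found at every distance between the paired TSSs. Up to 100 bp apart, 6 of 18 members were marked (33.3%), against 31.3% of all head-to-head genes at that distance. From 101 to 300 bp it was 8 of 15 (53.3%), against 37.4%, and from 301 to 1000 bp 13 of 25 (52%), against 32.6%. Each of the 3 intervals includes the share of all genes, and the last ran from 31.3% to 72.2%. The gaps of the 27 ran from 20 bp, between mRpL18 and Taz, to 793 bp, between mRpL4 and CG4440, with a median of 291 bp against 293 bp over all marked head-to-head genes. The 31 head-to-head members without an optimal summit had a median gap of 281 bp. It was 348 bp in the 16 with a pooled call and 95 bp in the 15 without one.

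By chromosome, an optimal summit marked 7 of 12 members on arm 2L (58.3%, against 19.8% of all genes there) and 6 of 12 on 2R (50%, against 18.7%). It marked 6 of 17 on 3L (35.3%, against 20.3%) and 8 of 21 on 3R (38.1%, against 22%). The intervals on 3L and 3R include the share of all genes. None of the 11 on X did, which allows up to 27.3%, against 18.2% of all X-linked genes. The X-linked genes included 9 with a partner, of which 0 were marked (up to 33.3%), against 27.5% of head-to-head genes on X. The background shares lie within both limits. The 11 genes are mRpL3, mRpL14, mRpL16, mRpL22, mRpL30, mRpL33, mRpL38, mRpL49, mRpS14, mRpS25 and mRpS30. Among them, mRpL16 was marked by replicate 1, at rank 4535, and mRpS25 by replicate 4, at rank 4088.

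**Figure D4:**
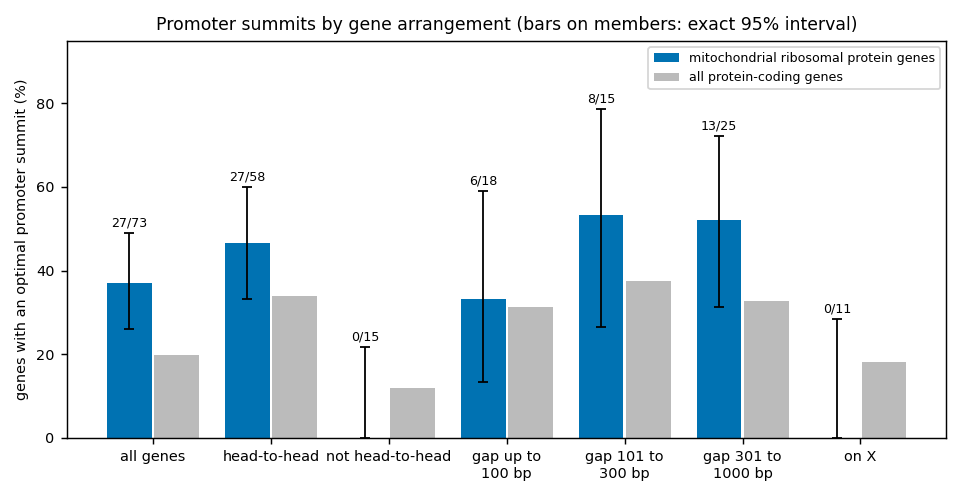
Share of genes with an optimal promoter summit (percent) among mitochondrial ribosomal protein genes (blue, error bars are exact 95% intervals, with the marked and total counts above) and all protein-coding genes (grey), by gene arrangement. All 27 marked members are in the head-to-head bar, and the bars for members without a partner and on X stand at 0 of 15 and 0 of 11.

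Most of the summits could not be assigned to the ribosomal protein gene alone. An optimal summit was within 500 bp of another protein-coding TSS at 25 of the 27 genes, and the exceptions were mRpL41 and mRpL4. It lay between both TSSs at 21 genes, inside the partner at 4 (mRpL11, mRpL18, mRpL27 and mRpL35) and inside the member at 2 (mRpL23 and mRpS11). The nearest TSS was that of the partner at 17, that of the member at 9, and at mRpL53 the distance to member and CG33155 was equal. Over all marked head-to-head genes, the own TSS was nearest or tied in 57.8%. When each optimal summit was given only to the gene with the nearest TSS, 11 members remained (15.1%), and over all genes the share was also 15.1%. Under that rule the 2 shares were equal.

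The median summit position was 152 bp upstream of the member's nearest TSS (quartiles 226.5 and 111 bp upstream). The range ran from 377 bp upstream to 51 bp downstream. Values for all marked genes and all marked head-to-head genes were 135 and 130 bp upstream. From each replicate's own strongest calls the median was 109.5, 147, 164 and 161 bp upstream. Of the 25 genes with a call in every replicate, 7 had all 4 summits within 50 bp of each other, 6 of them among the 10 strongest, and the median spread was 100 bp. The spread was not measured over all marked genes, so it is not read as a trait of the family.

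A pooled call below the end of the optimal list marked 20 more members. Of these, 16 had a partner: mRpS17, mRpL17, mRpL48, mRpL44, mRpL50, mRpL54, mRpL32, mRpL51, mRpL2, mRpL1, mRpL28, mRpS25, mRpS21, mRpL3, mRpL22 and mRpS30. The 4 without were mRpL19, at pooled rank 11961, mRpL49, at 12287, mRpS5, at 13351, and mRpL12, at 20502. Among the 20, the strongest calls of replicates 1 to 4 marked 6, 2, 1 and 3, a count not made over all genes with such a call.

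No pooled call was found at 26 members, 15 of them head-to-head. In 8 of the 26 no replicate had any call either: mRpL33, mRpL36, mRpL46, mRpS18A, mRpS18C, mRpS28, mRpS33 and mRpS34. The others were mRpL9, mRpL10, mRpL13, mRpL14, mRpL15, mRpL16, mRpL30, mRpL38, mRpL39, mRpL40, mRpL42, mRpL43, mRpL45, mRpL52, mRpL55, mRpS9, mRpS14 and mRpS35, each with a call in 1 or 2 replicates. At these 26, calls came from replicate 1 in 11 cases, replicate 2 in 2, replicate 3 in 13 and replicate 4 in 1. Over all protein-coding genes, any call was found at 51.9%, 44.6%, 52.5% and 43.8% in replicates 1 to 4. The counts at these 26 were not made over all genes without a pooled call, so they are not read as a trait of the family. For the 46 members without an optimal promoter summit, the nearest optimal summit was a median of 6910 bp away. It was within 1000 bp only at mRpL2, at 781 bp, and mRpS9 was the only member with an optimal summit in its body beyond 500 bp of a TSS. Neither the distances nor the body summits were counted over all genes, and gene length was not taken into account.

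A further list held 45 other nuclear genes of mitochondrial gene expression, such as synthetase, translation factor and transcription genes. It also included genes of mitochondrial DNA replication. An optimal summit was found at 5 of 45 (11.1%, interval 3.71% to 24.1%), at 4 of 25 with a partner (16%) and 1 of 20 without (5%). Over all protein-coding genes these shares were 19.9%, 34% and 11.9%, and the interval includes 19.9%. PNPase, whose product degrades RNA in mitochondria, led with pooled rank 27 and ranks 24, 21, 30 and 33 in replicates 1 to 4. mtSSB, a replication gene whose product coats single-stranded mitochondrial DNA, ranked 1501 and was the marked gene without a partner. The others were Suv3, an RNA helicase gene, at 2756, RNaseZ, which trims transfer RNA, at 3400, and CysRS-m, a transfer RNA synthetase gene, at 4727. CysRS-m was the only marked gene of 15 mitochondrial synthetase genes. The genes tko and bonsai also encode small subunit proteins of the mitochondrial ribosome but carry other symbols. tko ranked 16922 in the pooled list and bonsai had no pooled call.

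Cytosolic ribosomal protein genes were marked in 74 of 93 cases (79.6%), with 50 of 56 head-to-head (89.3%) and 24 of 37 others (64.9%). Nuclear genes of oxidative phosphorylation were marked in 18 of 92 (19.6%, interval 12% to 29.1%), with 14 of 46 head-to-head (30.4%) and 4 of 46 others (8.7%). Over all protein-coding genes these shares were 19.9%, 34% and 11.9%, so the oxidative phosphorylation genes were near the share of all genes. The mitochondrial family, at 37%, stood between the cytosolic and the oxidative phosphorylation lists. No difference between lists was tested.

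Among the promoter words searched from 250 bp upstream to 50 bp downstream of the 5′-most TSS, on both strands, the E-box CAGCTG had the largest share relative to all genes. It was present at 40 of 73 members (54.8%), against 17.7% of all protein-coding genes. The share was 53.4% in head-to-head members and 60% in the other members, against 22% and 15.2% of all head-to-head and all other genes. It was 48.9% in the list of 45 genes of mitochondrial gene expression and DNA replication. It was 23.9% in the oxidative phosphorylation genes and 9.68% in the cytosolic ribosomal protein genes. It was present at 13 of the 27 marked members (48.1%) and at 27 of the 46 others (58.7%).

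Most copies sat close to the TSS. The third base of the 45 words lay at a median of 4 bp downstream of the TSS (quartiles 32 bp upstream and 18 bp downstream). Of the 40 members with a word, 38 had one within 100 bp of the TSS (95%), against 68.4% of 2423 other genes with one. Within the 101 bases centred on the summit, no member held the whole word, against 5.33% of 2008 optimal promoter summits. The nearest copy, at mRpS2, lay at -243 bp from the TSS and 49 bp from the summit, by the third base of the word. It ran past the edge of that window and is not in the mRpS2 stretches shown. At the 13 marked members with the word, the 16 copies lay a median of 134.5 bp from the summit (49 to 299 bp). Words were searched only from 250 bp upstream to 50 bp downstream of the TSS, while summits reached 377 bp upstream. Copies beyond that stretch were not counted, so these distances depend on it. They were not measured over all marked genes.

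The 60 bases upstream of the TSS are shown for a marked pair of members and a pair with no pooled call, to place the word (in capitals) relative to the TSS, which follows the last base.
mRpS2, chr2L:4850420-4850479, minus strand: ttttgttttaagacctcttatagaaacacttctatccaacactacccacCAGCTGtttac
mRpL21, chr3L:19255062-19255121, minus strand: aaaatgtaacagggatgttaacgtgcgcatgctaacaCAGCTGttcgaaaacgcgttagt
mRpL45, chr3R:22618432-22618491, plus strand: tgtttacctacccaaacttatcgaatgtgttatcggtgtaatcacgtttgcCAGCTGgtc
mRpS35, chr3L:2780839-2780898, plus strand: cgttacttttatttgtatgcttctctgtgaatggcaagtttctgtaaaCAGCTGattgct
The third base of the word lies 9, 21, 7 and 10 bp upstream of the TSS in these 4 genes.

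**Figure D5:**
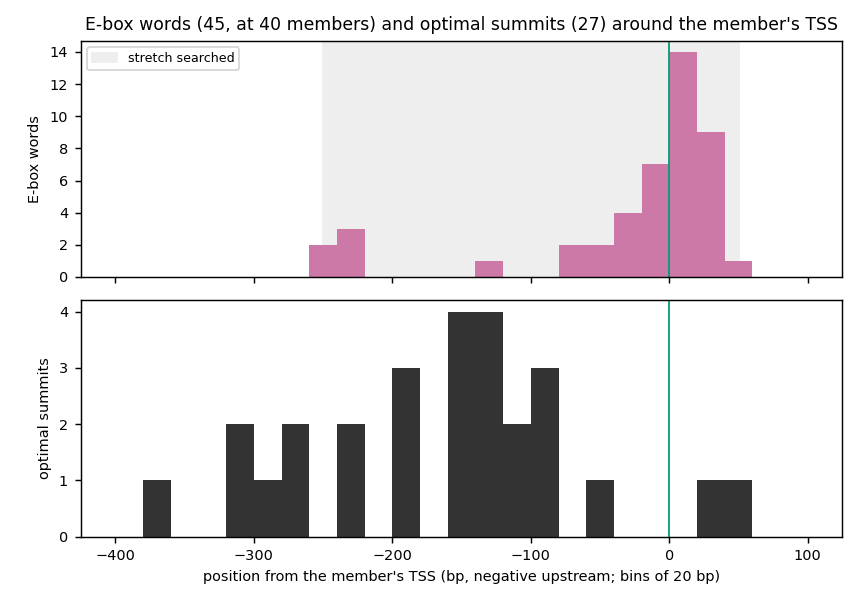
Positions of the 45 CAGCTG words at 40 members (top, number of words) and of the 27 optimal summits (bottom, number of summits) in bins of 20 bp from the member's TSS, with the stretch searched in grey. The words gather around the TSS, with a median of 4 bp downstream, and most summits lie upstream of it, with a median of 152 bp. At mRpL23 the word is placed from the 5′-most TSS and the summit from the nearest TSS.

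The other words differed less. The replication-related element TATCGATA was found at 15 members (20.5%), against 9.36% of all genes. Ohler motif 1 (GGTCACACT) and Ohler motif 7 (CATCNCTA) were each at 8 (11%), against 6.05% and 6.42%, and the E-box CACGTG was at 5 (6.85%), against 4.2%. TATAAA was at 34 (46.6%), against 45.8%, GAGAG at 12 (16.4%), against 29.7%, and CGATA, which overlaps TATCGATA, at 43 (58.9%), against 47.4%. Counting only words that lay wholly within 50 bp of the summit, at the 27 member summits TATAAA and CGATA were each found at 4 (14.8%), against 20.5% and 19.5% of all optimal promoter summits, and GAGAG at 2 (7.41%), against 8.52%. The remaining words lay wholly within that window at 0 of the 27, against 1.05% to 5.33%. Median GC content was 28.7% (16.8% to 60.4%) around member summits and 33.7% around all promoter summits. A match is a description of the sequence and not a bound site.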

How the data were processed

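CG1233-GFP ChIP-seq calls from 4 biological replicates of whole embryos (fragments of 200 to 800 bp, per the labels) were used on build dm6, as the deposited text files state. The authors called peaks and background on each replicate and on the pooled alignments against 1 shared control, and an irreproducible discovery rate step gave the optimal list. The aligner, caller and versions are not given in the sources used here. Signal values, deposited as the caller's score, have a different scale in each list and served only to rank calls inside it. The q-values were deposited as −log10 q. The deposited summit offset gave each summit.

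Genes were those of Ensembl release 115, and sequences those of the RefSeq genome. Shares carry 95% Clopper-Pearson intervals, and the limit for 0 is 3 counts of the total. Both cover counting error only. No test was run, since the 4 replicates form 1 group. Matching of calls to promoters was checked on simulated calls. Head-to-head gaps were checked against an exhaustive search of the annotation for a sample of genes. Python 3.11.15, numpy 2.4.6, scipy 1.17.1 and matplotlib 3.10.9 were used. Members and lists were chosen with earlier results of these data known. Values in full are given for the 10 members with the strongest optimal summits, the 3 members on either side of the end of the list and any member in a count of 5 or fewer. Of the symbols listed for mitochondrial gene expression, 6 did not match the annotation. Alternatives were other windows, TSS choices, call numbers, partner distances and each replicate left out. The partner of mRpL37 and the stretch beside it are not reported here.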

Additional observations from a re-analysis of the deposited data

How the results depend on the processing

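The count of 27 members with an optimal promoter summit became 11 when each summit served only the nearest TSS (15.1%, against 15.1% of all genes, second summits included), 15 with the strongest 2605 optimal peaks (20.5%, against 11.5%) and 13 with peaks held by all 4 replicates (17.8%, against 9.9%). With each replicate left out in turn, requiring the other 3 to hold the peak, it ranged from 13 to 18 (17.8% to 24.7%, against 10.4% to 11.9% of all genes), and so did the count of head-to-head members with an optimal summit. The mean of 25.25 members marked per replicate became 14 with the 2605 strongest calls and 38 with 10000. The median summit position of -152 bp became -109.5 bp from replicate 1's own calls. The 13 member peaks held by all 4 replicates became 8 with the 2605 strongest calls and 23 with all calls. Stricter rules and fewer calls lower these counts by their construction. For the changed numbers of calls per replicate, the shares of all genes are not given here. Those counts therefore do not show how the family stood against all genes.

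Windows of 200 and 1000 bp gave 20 and 28 members with an optimal summit (27.4% and 38.4%, against 13.7% and 23.3% of all genes). A partner limit of 500 bp left 24 of 53 head-to-head members and 3 of 20 others marked, against 37.3% and 13.4% of all genes, and limits of 2000 bp, partners of any biotype or, added after seeing the data, overlapping 5′ ends left 27 and 0. Requiring the strongest calls of at least 3 replicates, also added after seeing the data, gave 23 (31.5%, against 15.3%). No paired analysis was possible because the 4 replicates form 1 group. Depth is unknown, so no count could be weighted by it.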
